A study of Caenorhabditis elegans with 2 samples.

Results

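Galectins are lectins that bind β-galactoside sugars through a conserved carbohydrate-recognition domain, and in Caenorhabditis elegans they are encoded by lec genes. The 10 genes described here, lec-1, lec-2, lec-3, lec-4, lec-6, lec-7, lec-8, lec-9, lec-10 and lec-12, were taken by name out of 19973 protein-coding nuclear genes. For each of them, every region of the deposited lists whose summit (the base of highest signal) lay in the gene or within 5 kb of it was read, with its rank and its distance to the 5' end of each annotated transcript. The family was selected on the strength and rank of these same regions, known from earlier work on the lists, so the values are given as a description, with no test.

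The data come from chromatin immunoprecipitation and sequencing (ChIP-seq) of PHA-4 tagged with enhanced green fluorescent protein (eGFP). There was 1 group of 2 biological replicates: whole young adult worms, male and female pooled, of strain OP37. Both replicates carry the mutation unc-119(ed3) on chromosome III and the transgene wgIs37. The protein whose binding was read is therefore a tagged copy from a transgene. Binding of the endogenous protein was not read. The possible control that the labels name was not analysed here, and the read depth of each library is unknown. All tissues were pooled, so strong binding in few cells and weaker binding in many cells cannot be told apart.

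PHA-4 is the FoxA-type forkhead factor of the worm, best known for specifying the pharynx and for its later work in the gut and in the long life of worms on a restricted diet. FoxA proteins bind DNA through a winged-helix domain that reads a short TGTTTAC-like core. Worm galectins read sugars on glycoproteins and glycolipids. LEC-1 is a tandem-repeat galectin with 2 sugar-binding domains in 1 chain, LEC-6 is a single-domain galectin that binds galactose and fucose on the core of N-glycans, and LEC-8 binds the glycolipids that also serve as receptors for a Bacillus thuringiensis crystal toxin.

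The pooled list, made from both replicates, held 24890 regions, and 4065 of them reached a q value of 0.05 or less. The q value is the deposited significance value that allows for the many regions tested, and how it was computed is not stated. Its lowest value in the pooled list, 0.000608, was shared by 823 regions. The optimal list held 839 peaks that passed a reproducibility step, and these were the strongest 839 of the pooled list. All 839 overlapped a region of replicate 2 but only 580 a region of replicate 1. An optimal peak was therefore not always present in both replicate lists. The lists of replicate 1 and replicate 2 held 30000 regions each and stood far apart. In replicate 2 a q value of 0.05 or less was reached by 7548 nuclear regions, in replicate 1 by 0, where the lowest nuclear q value was 0.163. Replicate 1 did have 13 regions with a q value of 0.05 or less, none of them on a nuclear chromosome. Strength below is the authors' own signal value, whose scaling is not stated, and it is compared only within a list, by rank.

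The sequences under the galectin summits are shown first, because a heptamer that most of them share is described further on. They are RefSeq WBcel235 (ce11) bases within 100 bp of the summit, cut at annotated untranslated sequence, written 5' to 3' on the strand of the gene. Capitals mark the motifs searched: the 8 forkhead heptamers of the form TNTTTNN with A or G as the second and the sixth base and C or T as the last (TGTTTAC is one of them), the GATA site TGATAA, the repeat GAGAGAG of the GAGA type, and the letters CACGTG of an E-box. Each was also searched as its reverse complement. The peaks upstream of lec-9 (chrX:17600290-17600486, plus strand), lec-1 (chrII:13195249-13195449, plus strand) and lec-6 (chrIII:600786-600986, minus strand) are in the optimal list. The region upstream of lec-4 (chrIII:3773352-3773552, minus strand) is shown because it was the weakest best region in the family and still held the same heptamer, and the region upstream of lec-8 (chrX:9850264-9850464, plus strand) because it held none.
lec-9: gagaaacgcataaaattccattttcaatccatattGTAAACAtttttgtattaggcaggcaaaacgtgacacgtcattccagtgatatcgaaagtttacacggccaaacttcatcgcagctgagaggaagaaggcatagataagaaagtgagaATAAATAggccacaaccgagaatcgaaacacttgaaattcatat
lec-1: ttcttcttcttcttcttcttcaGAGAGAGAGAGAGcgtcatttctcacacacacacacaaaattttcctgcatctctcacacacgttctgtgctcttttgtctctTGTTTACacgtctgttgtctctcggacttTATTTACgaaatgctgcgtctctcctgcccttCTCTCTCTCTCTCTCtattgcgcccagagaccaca
lec-6: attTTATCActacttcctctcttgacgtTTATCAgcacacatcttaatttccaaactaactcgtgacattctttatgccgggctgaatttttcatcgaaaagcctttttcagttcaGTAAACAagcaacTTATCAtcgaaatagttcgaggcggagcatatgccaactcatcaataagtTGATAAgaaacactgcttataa
lec-4: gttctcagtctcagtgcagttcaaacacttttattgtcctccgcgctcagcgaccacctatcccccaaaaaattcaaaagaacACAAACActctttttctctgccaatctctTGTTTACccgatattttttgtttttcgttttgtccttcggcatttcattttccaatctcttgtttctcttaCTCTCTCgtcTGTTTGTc
lec-8: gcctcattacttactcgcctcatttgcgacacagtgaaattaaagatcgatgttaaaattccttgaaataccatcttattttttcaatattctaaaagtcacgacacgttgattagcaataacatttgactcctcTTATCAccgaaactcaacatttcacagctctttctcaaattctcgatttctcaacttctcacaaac

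Where the strongest summit lay in annotated untranslated sequence (lec-7, lec-10 and lec-12) or in the intron of lec-2, only the heptamer with 10 bases on each side is given, on the strand on which it reads as TGTTTAC or TATTTGC. These are lec-7 at chrX:9852123-9852149 (minus strand), lec-12 at chrV:204085-204111 (plus strand), lec-2 at chrII:10012430-10012456 (minus strand) and lec-10 at chrV:6489103-6489129 (plus strand).
lec-7: ttgcgaaccaTGTTTACtttttgtcat
lec-12: tttgccttttTGTTTACctgctatgca
lec-2: gtcaaaaatcTGTTTACttttttcaaa
lec-10: aggcgagtttTATTTGCttaaagacta

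PHA-4 regions of the optimal list lay at 6 of the 10 galectin genes, lec-1, lec-6, lec-7, lec-8, lec-9 and lec-12, where 10.9% of all protein-coding genes had one in the gene or within 5 kb. With the summit held to the promoter window, from 1000 bp upstream to 200 bp downstream of a transcript 5' end, the count was 5 of 10 galectin genes, and 3.52% of all protein-coding genes. The gene left out by that window was lec-8, whose only optimal peak belongs to the start of its neighbour lec-7. All 10 galectin genes had a pooled region with q at or under 0.05 within 5 kb, against 36% of protein-coding genes, and 8 of 10 had one in the promoter window, against 12.8%. A longer gene has a wider window: the galectin genes ran from 766 bp (lec-8) to 9240 bp (lec-3), with a median of 1459.5 bp against 2027 bp over all protein-coding genes, and the part of gene length in these shares was not tested.

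**Figure D1:**
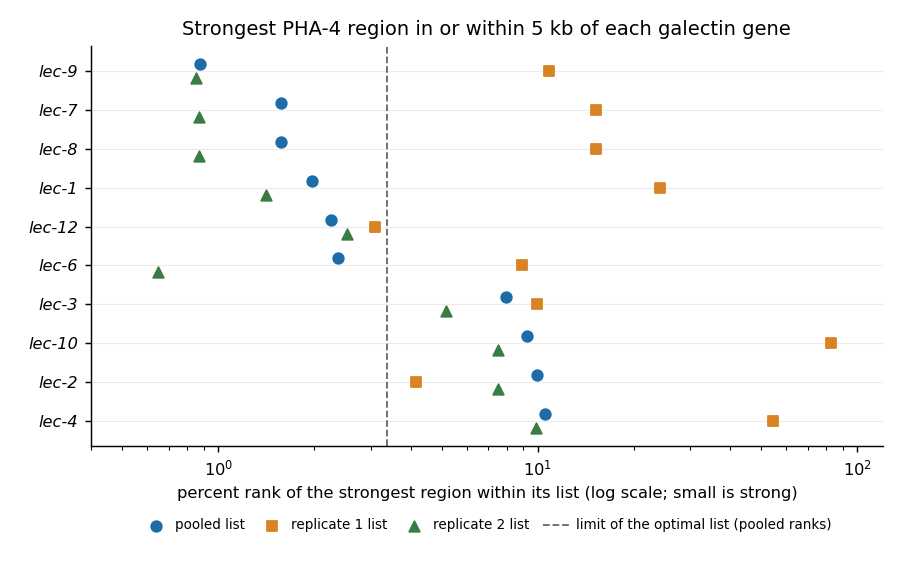
Percent rank of the strongest region in or within 5 kb of each galectin gene, on a log axis where small values are strong, in the pooled list (circles), replicate 1 (squares) and replicate 2 (triangles); the dashed line is the limit of the optimal list in pooled ranks. The pooled and replicate 2 points lie at or below 10.5% for all 10 genes, and the replicate 1 points run from 3.09% for lec-12 to 82.8% for lec-10.

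The strongest galectin peak was at lec-9, on the X chromosome at 17600487 to 17601503. Its summit lay 97 bp upstream of the only annotated 5' end, with a signal of 60.3, rank 218 of 24890 in the pooled list. In replicate 1 the strongest region near lec-9 had a signal of 8.52 (rank 3254) and lay 1396 bp upstream, while in replicate 2 the summit was 124 bp upstream with a signal of 53.6 (rank 255). A second region of lec-9, with signal 28.8 in the pooled list, lay 51 bp past the end of the gene. Both lec-9 regions had q at or under 0.05 in replicate 2 as well, the downstream one with a signal of 30.8.

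The neighbours lec-8 and lec-7 lie in tandem on the plus strand of the X chromosome, lec-8 at 9850571 to 9851336 and lec-7 at 9852041 to 9853002, with 704 bp between them. They share a peak of signal 52.0 (rank 391) whose summit is in the first, untranslated exon of lec-7, 101 bp past its 5' end, and 806 bp past the end of lec-8. Replicate 2 placed it within 1 bp, with signal 53.4 (rank 261), and in replicate 1 no region overlapped it. The closest replicate 1 summit was 398 bp away, with signal 6.49. The gene lec-8 had a weaker region of its own, 207 bp upstream of its 5' end, with pooled signal 34.2 (rank 1469, q = 0.00102) and replicate 2 signal 21.5 (rank 3216). In replicate 1 the strongest region of both genes was the one 293 bp upstream of lec-8, with signal 7.87 (rank 4575).

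On chromosome II, lec-1 (13195549 to 13199713) was the only galectin gene with more than 1 optimal peak. The first lay 200 bp upstream of its first 5' end, with pooled signal 48.8 (rank 490) and signals of 6.98 in replicate 1 (rank 7213) and 46.8 in replicate 2 (rank 423). The second, of signal 44.2 (rank 677), lay 98 bp past the end of the gene and 354 bp from the 5' end of btf-1, which encodes a TBP-associated ATPase. Of 3 further lec-1 regions with q at or under 0.05, the one of signal 33.3 was in an intron, the one of signal 23.0 was in an intron 246 bp past the second 5' end, and the one of signal 34.9 lay 4987 bp upstream, nearer to mecr-1. The neighbours btf-1 and mecr-1 are named after their values were seen.

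The optimal peak of lec-6 (chromosome III, 599510 to 600366) lay 520 bp upstream of its 5' end, with pooled signal 46.2 (rank 588). Its signal in replicate 2 was 57.4, rank 194, the strongest galectin region of that list. Replicate 1 had no region over it, and its strongest region near lec-6 had a signal of 8.89 (rank 2669) and lay 10 bp past the 5' end. A second pooled region of lec-6, with signal 27.1, lay 49 bp past the 5' end in coding sequence.

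The optimal peak of lec-12 (chromosome V, 204382 to 209755) lay 272 bp upstream of its nearest 5' end, with pooled signal 46.8 (rank 563) and replicate 2 signal 38.8 (rank 760). The summit is also inside trpp-1 (named after its values were seen), a gene for a subunit of the TRAPP vesicle-tethering complex, in its annotated untranslated sequence. Replicate 1 had a region with the same summit base, but its signal was 4.30, rank 26845 of 30000. The strongest replicate 1 region of lec-12, and of the whole family, was 240 bp past a 5' end in an intron, with signal 10.997 (rank 928, q = 0.287).

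The other 4 genes, lec-3, lec-10, lec-2 and lec-4, had no optimal peak, and their strongest pooled regions were close to each other in strength. That of lec-10 (chromosome V, 6488203 to 6489120) lay 71 bp past the 5' end in the untranslated first exon, with pooled signal 28.4 (rank 2311, q = 0.00671). Replicate 2 had the same summit with signal 22.7 (rank 2868), beside a slightly stronger region 3678 bp upstream with signal 25.4, and the only replicate 1 region of lec-10 had signal 4.48 (rank 24838). That of lec-4 (chromosome III, 3771425 to 3773326) lay 126 bp upstream of the 5' end, with pooled signal 27.0 (rank 2625, q = 0.00934), replicate 1 signal 5.03 for the region that overlapped it and replicate 2 signal 22.4 (rank 2964). Both genes thus had their best pooled region next to their only annotated start.

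The pooled region of signal 30.4 (rank 1976, q = 0.00481) counted for lec-3 (chromosome II, 9991112 to 10000351) lay 852 bp past the end of that gene and 61 bp from the 5' end of nlt-1, a gene for a lipid transfer protein. Replicate 2 placed it 17 bp away with signal 30.0 (rank 1547). In replicate 1 the strongest lec-3 region was instead 3 bp past a lec-3 5' end, with signal 8.68 (rank 2989, q = 0.506). The strongest pooled region of lec-2 (chromosome II, 10009608 to 10016183, minus strand) was in an intron, 1190 bp upstream of the nearest of its 3 distinct 5' ends, with signal 27.6 (rank 2479, q = 0.00706). Regions of nearly the same pooled strength lay 1126 bp upstream of the gene (26.9) and 346 bp past its end (27.2). In replicate 2 the upstream one led, with signal 25.4 (rank 2250), and in replicate 1 a region 205 bp from the intronic summit had signal 10.4 (rank 1248).

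**Figure D2:**
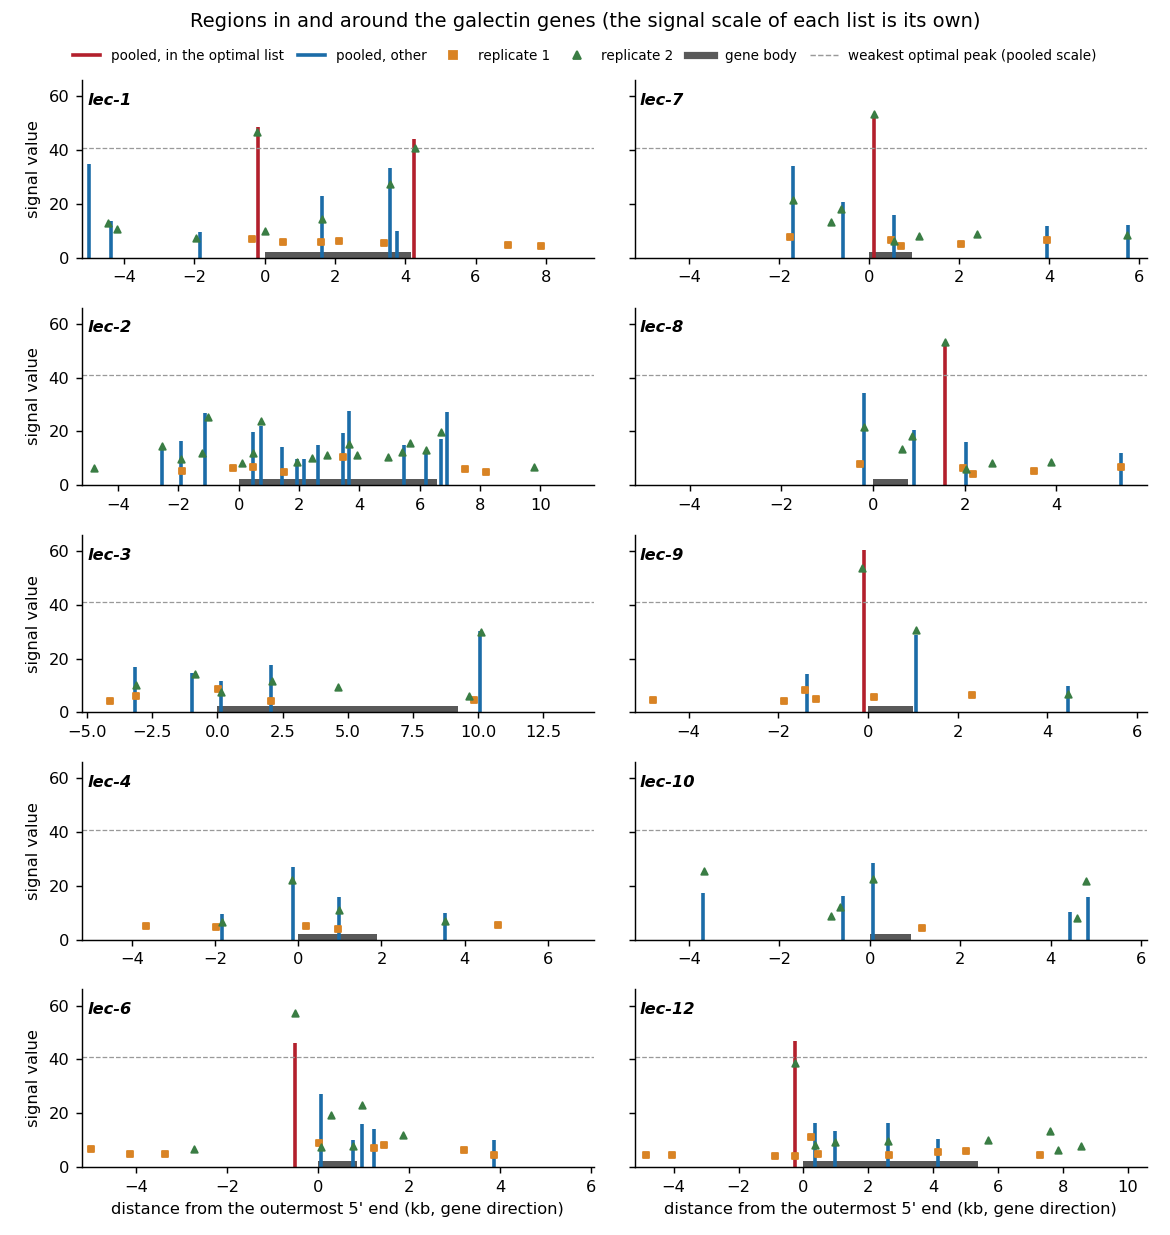
Regions within 5 kb of each galectin gene, by distance from the outermost 5' end in the direction of the gene (kb), with the signal value on the vertical axis: lines are pooled regions (red where in the optimal list, blue otherwise), squares replicate 1 and triangles replicate 2, and the grey bar is the gene. Replicate 2 summits sit on the red lines of lec-1, lec-6, lec-7, lec-8, lec-9 and lec-12, and replicate 1 squares stay at or below 10.997, on a scale of their own.

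Counted once each, 58 pooled regions lay at galectin genes, 18 of them with q at or under 0.05. Of these 18 regions, 8 lay upstream, 3 in introns, 2 in untranslated exons, 1 in coding sequence and 4 downstream of the gene. The 6 distinct optimal peaks had 4 upstream, 1 in an untranslated exon and 1 downstream. The strongest pooled summit was a median of 236 bp from the nearest 5' end of its own gene over the 10 genes, while the median was 759.5 bp in replicate 1 alone and 397.5 bp in replicate 2 alone. No such places or distances are given over all protein-coding genes. Whether nearness to a start is particular to the galectin genes was not tested.

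No member's call rested on the edge of the 5 kb window. The pooled region just inside it was the lec-1 region of signal 34.9, 13 bp within the limit, and in replicate 2 its counterpart, with signal 30.2, fell 31 bp outside. At the limit of the optimal list, the weakest optimal peak at a galectin gene was the second lec-1 peak (44.2), the strongest region that was not optimal was the distal lec-1 region (34.9), and the weakest optimal peak of the genome had a signal of 41.0.

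The galectin optimal peaks had regions over them more often in replicate 2 than in replicate 1. All 6 overlapped a replicate 2 region by at least 1 bp, with summits 0 to 30 bp apart (median 4 bp), and all 839 optimal peaks did the same. Only 3 of the 6 (50%) overlapped a replicate 1 region, against 580 of 839 optimal peaks (69.1%), and those 3 summits lay 0, 157 and 236 bp away. All 10 galectin genes had a replicate 2 region with q at or under 0.05 (52% of protein-coding genes), and 0 of 10 had one in replicate 1 (0% of protein-coding genes).

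By rank the replicates also differed. The strongest 10% of the list held a region of 9 of 10 galectin genes in the pooled list (26.1% of protein-coding genes), of all 10 in replicate 2 (30.7%) and of 4 in replicate 1 (28.5%), namely lec-2, lec-3, lec-6 and lec-12. The median percent rank of the best region over the 10 galectin genes was 2.31% in the pooled list, against 21.4% over protein-coding genes with a region. It was 1.97% against 17.8% in replicate 2 and 13.05% against 19.96% in replicate 1. Some region lay within 5 kb in all 3 relaxed lists for all 10 galectin genes, which was also true of 78.7% of protein-coding genes.

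**Figure D3:**
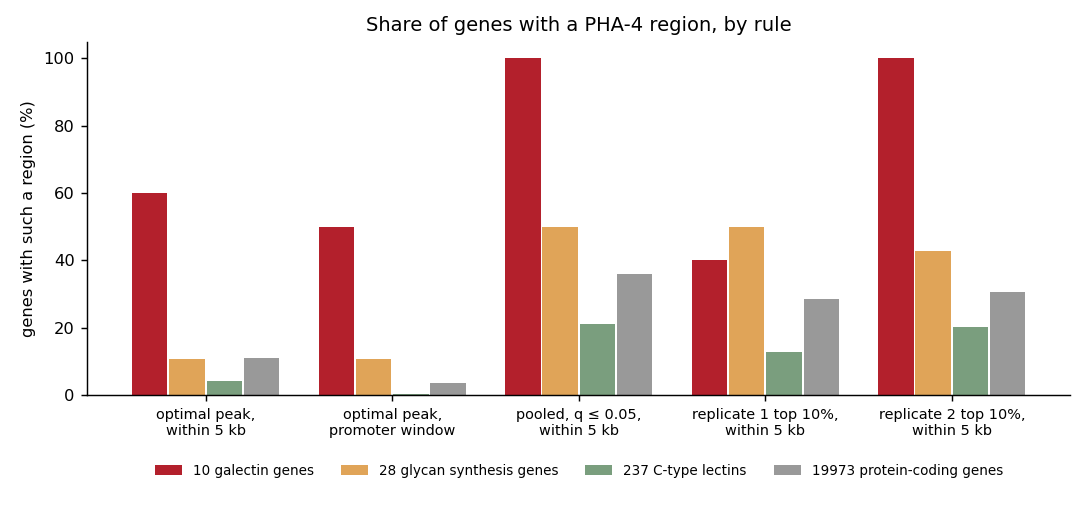
Percent of genes with a region by 5 rules, for the galectin genes, glycan synthesis genes, C-type lectin genes and all protein-coding genes, as bars from 0. The galectin bars are at 60% and 50% for optimal peaks, where all protein-coding genes are at 10.9% and 3.52%, and at 40% in replicate 1, where all protein-coding genes are at 28.5%.

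The annotation has 2 further lec genes. A region of signal 116.9, rank 11 in the pooled list, lay 3728 bp upstream of lec-5 but nearest to nep-25 and to the 5' end of ZK1248.17, and one of signal 56.6 (rank 281) lay 4520 bp from the 5' end of lec-11, nearest to F38A5.2. Neither gene had an optimal peak in its promoter window. Over all 12 lec genes the counts were thus 8 within 5 kb (66.7%) and 5 in the promoter window (41.7%). The shares of all protein-coding genes were 10.9% and 3.52%.

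Of 28 genes that build or trim the sugars of glycoproteins and glycolipids, 3 (10.7%) had an optimal peak within 5 kb, close to the 10.9% of all protein-coding genes. The same 3 genes had it in the promoter window, where all protein-coding genes were at 3.52%, and 8 of the 28 (28.6%) had a pooled region with q at or under 0.05 there, against 12.8%. The 3 genes were sqv-3, a galactosyltransferase of the glycosaminoglycan linker (signal 78.6, 440 bp upstream), hex-3, a hexosaminidase (71.6, 207 bp upstream), and bre-4, a transferase that builds the arthro-series glycolipids (59.4, 278 bp upstream). The peaks of hex-3 and bre-4 were nearer to the starts of fbxb-85 and Y73E7A.1.

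C-type lectin genes, the other large family of worm lectins, had optimal peaks within 5 kb at 10 of 237 genes (4.22%) and in the promoter window at 1 (0.422%). Both shares were below those of all protein-coding genes, 10.9% and 3.52%. The strongest of these regions lay near clec-196 (signal 100.5), but its summit was nearest to the chaperone gene hsp-1. Those of clec-158 (70.8), clec-179 (65.0) and clec-171 (53.2) were also nearest to the start of another gene, and that of clec-178 (55.6) was 444 bp past its own 5' end.

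The galectin summits shared a forkhead heptamer. At least 1 of the 8 heptamers lay within 100 bp of the strongest pooled summit at 9 of 10 galectin genes and at 5 of the 6 distinct optimal peaks, against 45.8% of all optimal peaks and 36.6% of all pooled regions. In 8 of the 10 genes, on 7 distinct summits since lec-7 and lec-8 share one, it was TGTTTAC. That single heptamer was in 5 of the 6 galectin optimal peaks, against 10.4% of all optimal peaks, 4.08% of all pooled regions and 2.8% of the weaker 50% of pooled regions. It was singled out after the galectin matches were seen.

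The middle base of TGTTTAC was 6 bp from the summit at lec-7, 8 bp at lec-1, 12 bp at lec-12, 15 bp at lec-4, 19 bp at lec-6, 62 bp at lec-9 and 80 bp at lec-2. The strongest summit of lec-10 held TATTTGC at 67 bp, and that of lec-3, next to nlt-1, held none of the 8. The second lec-1 peak, nearest to btf-1, held none either. A wider set of 16 heptamers, with G or T as the fifth base, was at all 10 strongest summits. It was at 59.4% of all optimal peaks and 50.4% of all pooled regions. Within 50 bp of the summit the 8 heptamers were at 6 of 10 genes, against 27.7% of all optimal peaks and 20.9% of pooled regions. Among the 58 distinct pooled regions at galectin genes, TGTTTAC lay in 7 of the 18 with q at or under 0.05 and in 0 of the 40 others. The shares over the whole pooled list were 7.4% and 3.43%. Those 7 regions are the strongest summits from which the heptamer was singled out, and all of them had q at or under 0.05. The split by q value is therefore no separate evidence.

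The heptamer was also counted over whole promoter windows, which is no separate evidence, since it was picked from the summits inside them. TGTTTAC was in the promoter window of 8 of 10 galectin genes (80%), all except lec-3 and lec-10, but in 6 of the 8 (lec-1, lec-4, lec-6, lec-7, lec-9 and lec-12) the window took in the match at the summit itself. Apart from those matches, 5 galectin windows held the heptamer, those of lec-1, lec-2, lec-4, lec-6 and lec-8. It was in the promoter window of 17.1% of protein-coding genes, 35.7% of the glycan synthesis genes and 14.8% of the C-type lectin genes. Genes with several 5' ends, such as lec-2, have a longer window to search. The promoter windows of lec-5 and lec-11 held no TGTTTAC. Across protein-coding genes the heptamer was in 20.9% of the promoter windows with an optimal peak and 17% of those without one. The 8 heptamers together were in all 10 galectin windows and in 92.7% of all windows.

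The other motifs were each at 3 or fewer of the galectin genes, and, unlike TGTTTAC, none of them was singled out from matches at these summits. The GATA site was within 100 bp of the strongest summit of 3 galectin genes (lec-3, lec-6 and lec-12), against 27.1% of all optimal peaks and 22.4% of pooled regions. The GAGA repeat, whose matches overlap one another, was at 3 (lec-1, lec-4 and lec-12), against 17.2% of all optimal peaks and 6.16% of pooled regions. The E-box was at 0 of 10, against 13.1% of all optimal peaks and 4.62% of pooled regions. The lec-6 window held 4 GATA sites, and the lec-1 window had a GAGA run near each end with TGTTTAC between them. Mean GC content was 37.9% over the galectin optimal peaks, 41.0% over all optimal peaks and 36.5% over all pooled regions. A match says only that these letters lie near the summit.

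**Figure D4:**
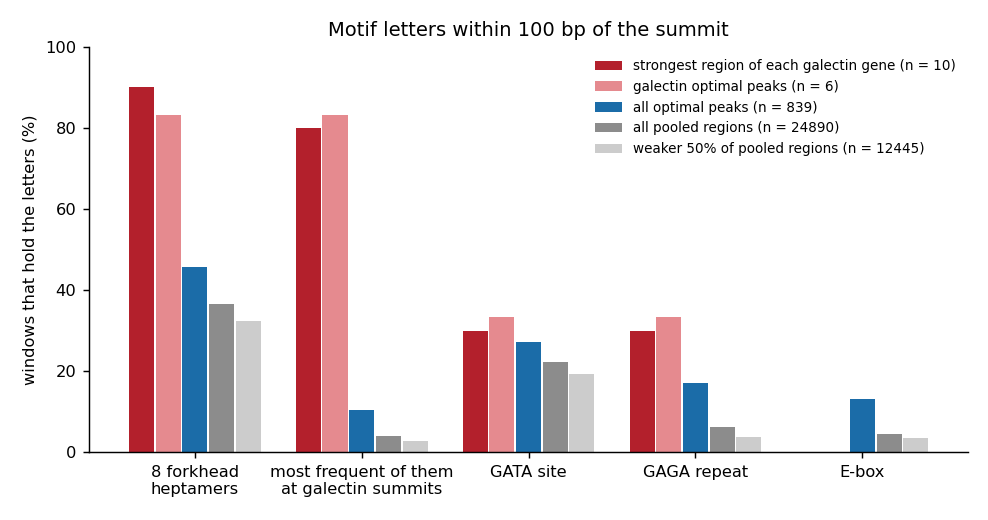
Percent of windows of 100 bp on each side of the summit that hold each motif on either strand, as bars from 0, for the galectin regions, all optimal peaks, all pooled regions and the weaker 50% of pooled regions. The heptamer most frequent at galectin summits is at 80% and 83.3% of the galectin windows and at 10.4% or less of the other sets.

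In replicate 1 the letters were not at the galectin summits in this way. The strongest replicate 1 summit held TGTTTAC at 0 of 10 galectin genes and any of the 8 heptamers at 4. The strongest replicate 2 summit held TGTTTAC at 7 genes and any of the 8 heptamers at 8, where lec-7 and lec-8 share 1 summit. Over all pooled regions the shares were 4.08% for TGTTTAC and 36.6% for the 8 heptamers. Shares over all regions of each replicate list are not given, so the replicate 1 counts cannot be told from those of any region.

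The genes whose best percent ranks in the 2 replicates were closest to those of lec-9 (10.8% in replicate 1 and 0.85% in replicate 2) were C02F5.14 and C02F5.5, which share their regions, at 10.9% and 0.797%, and Y22D7AL.10 at 11% and 0.76%. The measure was the sum of the absolute differences in percent rank, 0.137 for the C02F5 genes and 0.243 for Y22D7AL.10, over 2 samples.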

How the data were processed

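PHA-4-eGFP ChIP-seq of 2 biological replicates in 1 group was read from the lists on build ce11; the replicate numbers come from the labels, and library fragments covered 150 to 350 bp. The authors deposited, per the notes beside the lists, a relaxed list of peaks and background for each replicate and for the pool, and an optimal list that passed the irreproducible discovery rate (IDR) step. The deposited signal value and the −log10 q value of each region are the authors' own, and the p value was not filled. Not given in the sources used here were the aligner, the caller, the IDR cut-off and the scaling of the signal. The notes name, for each relaxed list, 1 more input file beside the alignments and say nothing else of it. Depth is therefore unknown, and no interval is given.

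Regions were ranked by signal within each list. Distances, counted from 1, run to the 5' ends of Ensembl release 115 transcripts on WBcel235, and a summit counted for every gene in whose window it lay. Scripts in Python 3.11.15 with pandas 2.3.3 and numpy 2.4.6 were tested on simulated lists. No test was made. The members, the gene lists and the 4 motif sets were chosen with earlier results of these data known. All 10 members are named, with the neighbour whose 5' end is nearest to a member's strongest pooled summit, and up to 5 genes per related list by signal; the other neighbours were named after their values were seen. The 3 genes most like lec-9 are named by percent rank in both replicates. Alternatives were a 2 kb window, the promoter window, the nearest gene only, stricter limits, other motif windows, and each replicate alone. Lists on ce10 were not used.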

Additional observations from a re-analysis of the deposited data

How the results depend on the processing

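The counts rest on replicate 2. With each replicate alone, galectin genes with a peak among as many strongest nuclear regions as the optimal list holds numbered 0 to 6 (6 in the pool), and those with a q value of at most 0.05 numbered 0 to 10 (10 in the pool). Those with a region in the strongest 10% numbered 4 to 10 (9 in the pool), those with a forkhead heptamer at the strongest summit 4 to 8 (9 in the pool), and the median distance to the 5' end was 397.5 to 759.5 bp (236 bp in the pool); in each case replicate 1 gave the value farther from the pool, and the cause was not tested. In the stronger 50% of the optimal list 3 genes had a peak, lec-7, lec-8 and lec-9, and lec-7 and lec-8 share theirs. The other galectin optimal peaks had signals below 50.8, the median of the optimal list. Regions of both replicates overlapped the strongest pooled region at 6 genes, against 10 with any region in all 3 lists. Under the nearest gene only, 4 genes had an optimal peak, without lec-8 and lec-12, and under the nearest transcript 5' end, an alternative chosen after seeing the data, 5 did. No share of all protein-coding genes is given for the stronger 50%, the overlap of both replicates, the nearest gene or the nearest 5' end. The same holds for the strongest regions of each replicate alone, as many as the optimal list holds. The forkhead counts of each replicate alone stand without the share over all regions of that list. All these counts show only how the galectin calls changed. No paired analysis was possible because there is 1 group. Unknown depth limits what the weak replicate 1 values can show.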
